A study of Homo sapiens with 7 samples.

Results

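AML1-ETO and N-CoR summits were counted per gene in Kasumi-1 cells, to find the genes where both proteins were recorded many times and the genes where only one of them was. A summit is the single base pair of a ChIP-seq peak with the highest signal. Each summit of the AML1-ETO list (18087 summits) and of the N-CoR list (10004 summits) was given to every protein-coding gene whose body, extended by 5 kb at each end, contained it. Of 19497 genes counted, 1327 fell in one of 3 classes. The many-both genes had at least 4 AML1-ETO and at least 3 N-CoR summits, and there were 517 of them, 2.65% of the genes counted. The AML1-ETO without N-CoR genes had at least 4 AML1-ETO summits and 0 N-CoR summits, and there were 49 of them, 0.251% of all. The N-CoR only genes had at least 1 N-CoR summit and 0 AML1-ETO summits, and there were 761 of them, 3.90% of all. The summit counts defined the classes, so these counts are a description and carry no test.

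AML1-ETO is the fusion protein made by the t(8;21) translocation of acute myeloid leukemia. It keeps the Runt domain of the transcription factor AML1 (RUNX1), which binds DNA, and joins it to most of ETO (RUNX1T1), a protein that binds co-repressors. N-CoR (NCOR1) is such a co-repressor. It is the scaffold of a complex with histone deacetylase HDAC3 and the TBL1 proteins, and it is brought to DNA by many unrelated factors, nuclear receptors among them, so that N-CoR can be found on chromatin with or without the fusion protein.

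The Kasumi-1 line is an established human line of t(8;21) leukemia, labelled as a myeloblast from peripheral blood and used here at one range of passages, untreated. Sheared chromatin was immunoprecipitated with antibodies to ETO (for AML1-ETO), N-CoR, AML1, p300 and the histone mark H3K4me3. Because the fusion protein was pulled down with an antibody to ETO, the list cannot be told apart from one that also holds unfused ETO. The 2 biological replicates of each antibody were pooled before peaks were called, so that each list is a single measurement, no comparison between lists could be tested, and all lists come from 1 cell line. The peak names in the N-CoR list carry the prefix of the ETO antibody, and those in the p300 and H3K4me3 lists the prefix of AML1. Which antibody a list belongs to was therefore taken from the sample it was deposited under. Each N-CoR, p300 and H3K4me3 value rests on that assignment. The length of each of these lists equals the peak number that the study reports for that antibody. The lists hold positions and peak names without heights or read counts, so the depth behind a summit is unknown, and 0 summits means that none passed the threshold of the study (MACS p below 1e-20), not that the protein was absent. All intervals below are exact Clopper-Pearson 95% intervals and cover counting error only. The labelled cell type was checked on H3K4me3, a mark of active starts. A summit lay within 1 kb of a start of 7 of 7 myeloblast genes (MPO, KIT, CD34, CD33, ELANE, AZU1 and SPI1), 0 of 3 T cell genes, 0 of 3 erythroid genes, 0 of 2 hepatocyte genes and 1 of 2 neuronal genes (SYN1). Of the B cell genes reported here PAX5 had one and MS4A1 had none.

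Most summits of both lists lay in a gene window. This held for 72.4% of AML1-ETO summits (71.8 to 73.1%) and 71.2% of N-CoR summits (70.3 to 72.1%). At least 1 AML1-ETO summit was found in 7997 genes and at least 1 N-CoR summit in 5140 genes. Both were found in 4379 genes and neither in 10739. Genes with N-CoR were thus mostly genes with AML1-ETO, while 3618 genes had AML1-ETO and no N-CoR. Most of the latter held few summits, and 2786 of them had only 1 AML1-ETO summit. Genes rich in N-CoR with no AML1-ETO were almost lacking. Of 748 genes with at least 3 N-CoR summits only BAX, FTL and H1-5 had 0 AML1-ETO summits. These 3 were named after their values were seen, and BAX and FTL are neighbours on chromosome 19.

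**Figure D1:**
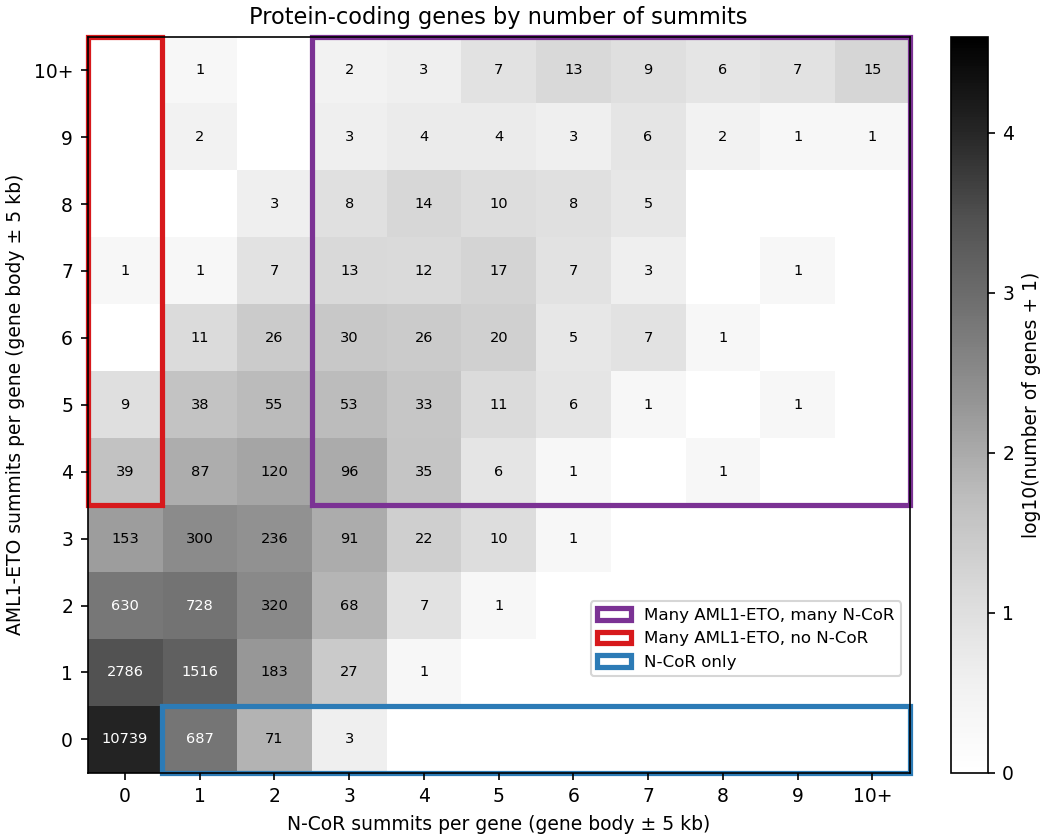
Number of protein-coding genes by AML1-ETO summits per gene (vertical axis, summits) and N-CoR summits per gene (horizontal axis, summits), both within the gene body and 5 kb at each end. Counts of 10 or more are pooled, the grey scale is logarithmic, and coloured frames mark the classes. With many AML1-ETO summits the genes with 0 N-CoR summits run out, while N-CoR only genes sit at 1 N-CoR summit (687 of 761).

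The share of genes without N-CoR fell with every step in AML1-ETO summits up to 6. It was 61.7% of 4513 genes with 1 AML1-ETO summit, 35.9% of 1754 genes with 2, 18.8% of 813 genes with 3, 10.1% of 385 genes with 4 and 4.35% of 207 genes with 5. With 6 summits 0 of 126 genes lacked N-CoR, which allows a share of up to 2.89%. With 7 summits 1 of 62 genes did, and this gene was RGS3. With 8 or more, 0 of 137 genes lacked N-CoR and 131 had at least 3 N-CoR summits. Across genes the counts had a Spearman correlation of 0.620, which is a description, since long genes hold more of both and neighbouring genes share summits. Within 10 bins of gene length it ran from 0.521 in the shortest genes to 0.731 in the longest.

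The thresholds cut through a continuum. Just inside the many-both class were 96 genes with 4 AML1-ETO and 3 N-CoR summits, and just outside were 120 genes with 4 and 2, and 91 genes with 3 and 3. At the edge of the AML1-ETO without N-CoR class, 39 genes had 4 AML1-ETO and 0 N-CoR summits, 153 had 3 and 0, and 87 had 4 and 1. Of the 917 genes with at least 4 AML1-ETO summits, 517 were many-both, 351 had 1 or 2 N-CoR summits and 49 had none.

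Gene length bore on the classes in different ways. The median many-both gene was 115424 bp long and the median AML1-ETO without N-CoR gene 79106 bp, against 26554 bp over all genes and 25746 bp for N-CoR only genes. The share of many-both genes rose from 0.359% in the shortest length bin (0.144 to 0.738%) to 10.0% in the longest (8.70 to 11.4%). The N-CoR only share stayed between 3.08% and 5.08% in every bin. A gene with N-CoR was more often without AML1-ETO when it was short. This was so for 28.1% of N-CoR genes in the shortest bin (22.3 to 34.4%) and 7.37% in the longest (5.67 to 9.39%). The ratio of N-CoR to AML1-ETO summits hardly moved with length, between 0.523 and 0.600 in all bins. Per 100 kb of gene window, AML1-ETO density fell from 2.96 summits in the second shortest bin to 0.482 in the longest, and N-CoR density fell from 1.65 to 0.267.

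**Figure D2:**
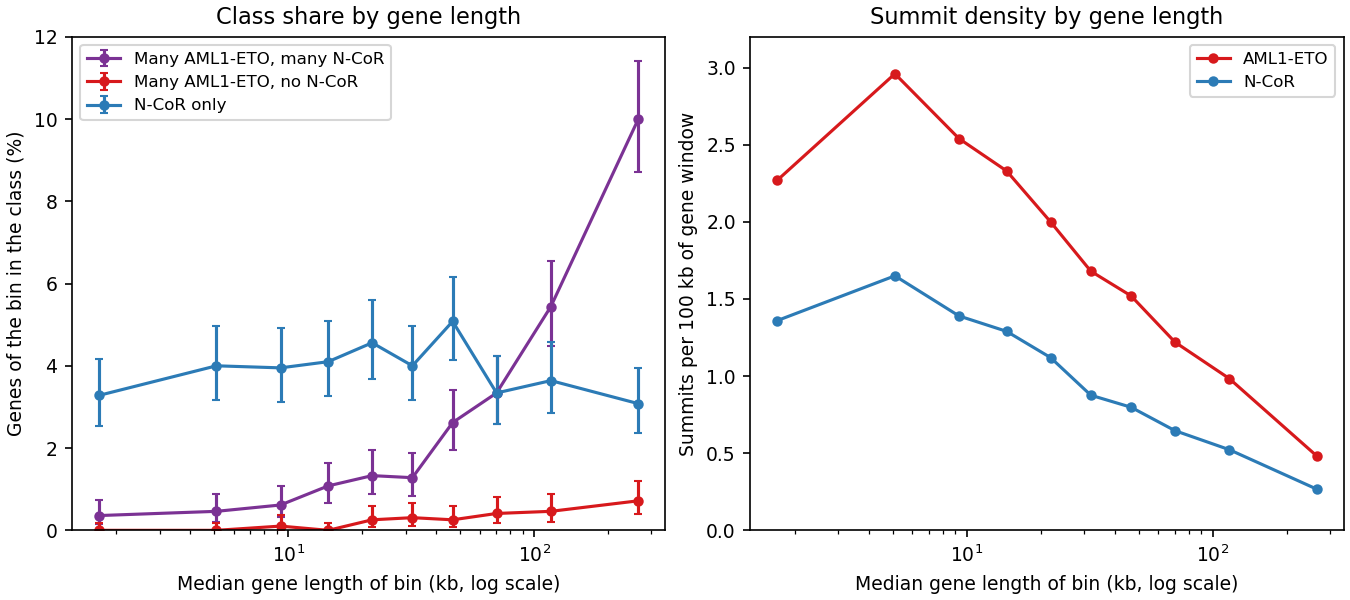
Left, share of genes in each class (%, with exact 95% intervals) against the median gene length of 10 equal bins (kb, log scale). Right, AML1-ETO and N-CoR summits per 100 kb of gene window in the same bins. The many-both share reaches 10.0% in the longest genes while both densities are lowest there, and the N-CoR only share stays between 3.08% and 5.08%.

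To allow for length, each count was divided by the count that the window would hold at the mean density of its list, 1.03 AML1-ETO and 0.559 N-CoR summits per 100 kb of gene window. The many-both genes had a median observed to expected ratio of 4.95 for AML1-ETO and 6.36 for N-CoR. The ratio was above 1 for AML1-ETO in 485 of 517 and for N-CoR in 499. The rest held no more than the mean density of that list. A single mean density was used for all genes, while density fell with length, to 0.482 and 0.267 in the longest bin. Against genes of their own length, ratios of short genes would be lower and those in the longest bin higher. TCF12 had an AML1-ETO ratio of 0.995 but 1.02 summits per 100 kb, against 0.482 in its bin. FHIT, a gene of a common fragile site, held 6 AML1-ETO summits where 15.6 were expected and 3 N-CoR summits where 8.46 were expected, over 1504131 bp. The AML1-ETO without N-CoR genes had a median ratio of 4.36 for AML1-ETO, close to that of the many-both genes. The N-CoR only genes had a median ratio of 5.33 for N-CoR, mostly from 1 summit each. All these ratios rest on the counts that defined the classes, so high values follow in part from the rule and are a description.

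The many-both genes with the most summits were long genes of varied function. RUNX1, the gene of AML1 itself, came first with 26 AML1-ETO and 17 N-CoR summits over an annotated length of 1216868 bp (hg19, chr21:36160098-37376965, minus strand), which is 2.06 times and 2.48 times the expected counts. SEPTIN9, which encodes a filament-forming GTPase, held 23 AML1-ETO and 18 N-CoR summits in 220028 bp (chr17:75276651-75496678, plus strand), 9.72 times and 14.0 times the expected counts. RPTOR, the mTORC1 scaffold, held 19 AML1-ETO and 16 N-CoR summits. ZMIZ1, a co-activator of the PIAS-like family, held 18 and 16, the latter 11.1 times the expected count, and GSE1 held 22 and 12. CDH23, an atypical cadherin, held 20 and 12. HIVEP3, a zinc finger gene, held 18 and 11. CELF2, an RNA-binding protein, held 13 of each, and CHST11, a chondroitin sulfotransferase, held 14 and 11. All of these lay in the longest bin, and RUNX1 had the lowest AML1-ETO density among them, at 2.12 summits per 100 kb, while SEPTIN9 had the highest, at 10.00. N-CoR summits outnumbered AML1-ETO summits in 26 of the 517 many-both genes and equalled or outnumbered them in 84.

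Ranked by density, short genes took their place. TYROBP (chr19:36395303-36399197, minus strand), the adaptor DAP12 of myeloid receptors, held 5 AML1-ETO and 5 N-CoR summits in a window of 13895 bp, and its neighbour HCST, the adaptor DAP10, held 5 and 4 in an overlapping window of 11849 bp. Their AML1-ETO ratios were 35.0 and 41.0 and their N-CoR ratios 64.4 and 60.4. LYL1, a basic helix-loop-helix factor of blood progenitors, held 5 and 5 in 14129 bp. Of the rest, INKA1 held 5 and 3, RGS19 5 and 4 and its neighbour LKAAEAR1 4 and 3, with shared summits. EXOSC4, ZFP36 (a factor that destabilizes mRNA) and HES1 (a target of Notch) held 4 and 3 each. CD79A, a B cell receptor subunit, held 4 and 4, and its window overlaps that of RPS19. An H3K4me3 summit lay within 1 kb of a start of LYL1, INKA1, LKAAEAR1, EXOSC4, ZFP36 and RGS19 but not of TYROBP, HCST, CD79A or HES1.

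**Figure D3:**
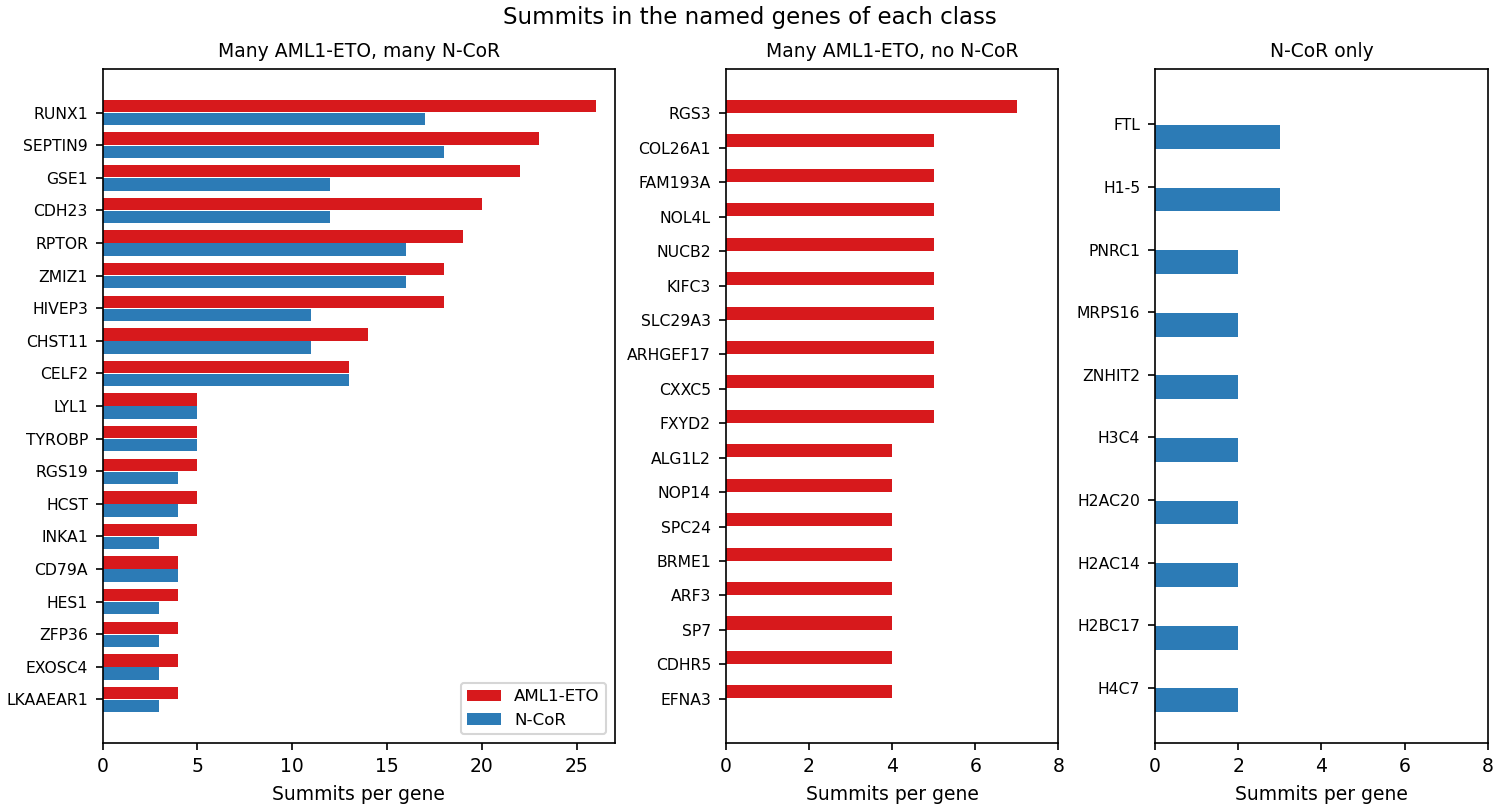
AML1-ETO (red) and N-CoR (blue) summits per gene in the genes with the most summits and the highest densities of each class. RUNX1 (26 and 17) leads the many-both genes, RGS3 (7 and 0) the AML1-ETO without N-CoR genes, and FTL and H1-5 (0 and 3 each) the N-CoR only genes.

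Summits of both proteins in many-both genes often coincided, as they did in other genes that held both. The deposited 100 bp windows of 1793 of 3227 AML1-ETO summits overlapped an N-CoR window, 55.6% (53.8 to 57.3%), and so did 79.7% of 2251 N-CoR summits with AML1-ETO (77.9 to 81.3%). Over all gene windows these shares were 37.7% and 69.3%. In genes with 1 summit of each, 72.3% of AML1-ETO summits overlapped N-CoR, and in genes with at least 4 AML1-ETO and 1 or 2 N-CoR summits 82.9% of N-CoR summits overlapped AML1-ETO. The shares follow in part from the counts that the rule used. In SEPTIN9 14 of 23 AML1-ETO windows overlapped N-CoR, in ZMIZ1 14 of 18 and in TYROBP 4 of 5. Most of the summits were intronic, 66.4% for AML1-ETO and 68.1% for N-CoR, and 24.1% of AML1-ETO summits lay within 1 kb of a start (22.7 to 25.7%), against 39.5% over all gene windows.

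The sequences below are the 100 bp windows of the lowest-numbered AML1-ETO summits outside exons in 4 many-both genes, from the forward strand of hg19, and they were chosen to show the letters that the shares further on count. Capitals mark, on either strand, TGTGGT (the Runx consensus), GAGGAA (the PU.1 consensus), AGGAAG (an ETS consensus), CCAAT (the CCAAT box) and TGACG (the core of the cAMP response element). The PU.1 and ETS letters share most of their bases, so that one stretch can count for both. The HCST window (chr19:36389927-36390026) lies 3454 bp upstream of HCST, and 665 bp from a transcript start of another protein-coding gene. The TYROBP window (chr19:36400346-36400445) and the LYL1 window (chr19:13215241-13215340) lie upstream of the gene bodies, and the RUNX1 window (chr21:36238007-36238106) is intronic. In RUNX1 overlapping ETS and PU.1 letters are followed by the Runx letters. An N-CoR summit lay 16 bp from the AML1-ETO summit in TYROBP, 2 bp from it in LYL1 and 17 bp from it in RUNX1, but 1564 bp from it in HCST.
HCST: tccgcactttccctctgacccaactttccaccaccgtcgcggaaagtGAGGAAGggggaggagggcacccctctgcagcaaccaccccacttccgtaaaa
TYROBP: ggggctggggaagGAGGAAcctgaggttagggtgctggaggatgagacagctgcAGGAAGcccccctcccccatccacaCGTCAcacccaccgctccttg
LYL1: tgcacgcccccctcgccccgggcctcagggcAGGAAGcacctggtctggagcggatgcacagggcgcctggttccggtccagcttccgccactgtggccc
RUNX1: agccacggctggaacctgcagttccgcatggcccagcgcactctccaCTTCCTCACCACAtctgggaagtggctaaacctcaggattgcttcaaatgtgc

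Myeloid signalling genes and blood transcription factors were often many-both. Among 32 receptors and signalling genes of myeloid cells, 13 were many-both, beside 2.65% of all genes. Examples were ITGB2, the common leukocyte integrin chain, with 9 AML1-ETO and 7 N-CoR summits, PIK3CD with 9 and 4, the kinases SYK and LYN with 7 and 5 each, VAV1 with 7 and 6, CSF1R, the receptor of macrophage growth factor, with 5 and 3, and LAPTM5, a lysosomal membrane protein, with 4 and 5. KIT and FGR missed the class with 6 AML1-ETO and 2 N-CoR summits each. Of 30 blood transcription factors 7 were many-both, namely RUNX1, FLI1 (9 and 7), ERG (6 and 4), LMO2 (5 and 4), LYL1, IKZF1 (5 and 3) and GFI1 (4 and 4). SPI1, which encodes PU.1, held 3 and 3. IRF8 held 3 AML1-ETO summits and 0 N-CoR, and CEBPA, GATA1 and GATA2 held none of either.

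Genes of proteins that work with AML1-ETO gave 3 many-both members of 23, among them the ETO relative CBFA2T3 (8 and 6) and the E protein TCF12 (4 and 4). These genes are long, with a median of 97945 bp in a length bin where 5.44% of all genes were many-both, and their median observed to expected ratios were 1.01 for AML1-ETO and 1.24 for N-CoR. NCOR1, the gene of N-CoR, was N-CoR only with 1 summit, and RUNX1T1 held none of either. None of 16 genes of granule proteins was many-both, a count that cannot be set apart from the 2.65% of all genes. These genes are short, with a median length of 8402 bp, and 12 of them had AML1-ETO, beside 41.0% of all genes. Per 100 kb of window they held 4.72 AML1-ETO and 3.61 N-CoR summits, beside 5.46 and 3.78 in the myeloid signalling list and 2.62 and 1.83 in the blood transcription factors. Ribosomal protein genes, also short with a median of 5439 bp, held 3.33 and 2.60. Density fell with gene length and the lists differ in length, so these densities do not set myeloid genes apart. MPO, the myeloperoxidase gene, held 3 AML1-ETO and 4 N-CoR summits, and PRTN3 was N-CoR only. Of 20 B and T cell genes 1 was many-both, CD79A. Of 30 very long genes of neurons and fragile sites, taken as a contrast for length, 2 were many-both, FHIT and AUTS2. In the longest length bin 10.0% of all genes were many-both. The 30 together held 0.117 AML1-ETO summits per 100 kb, against 0.482 in that bin. The myeloid signalling list held 5.46 and all genes 1.03. None of the genes in these lists or of 76 ribosomal protein genes fell in the AML1-ETO without N-CoR class. That class holds 0.251% of all genes, and in lists of this size a count of 0 cannot be set apart from that share.

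The AML1-ETO without N-CoR genes held few summits each. RGS3 (chr9:116207011-116360023, plus strand), a regulator of G protein signalling, came first with 7 AML1-ETO summits where 1.68 were expected. The nearest N-CoR summit lay 75084 bp from any of them, and the gene held 0 p300 summits. Another 9 genes held 5. FXYD2 (a subunit of the sodium pump), CXXC5 and ARHGEF17 had ratios of 12.8, 10.4 and 6.84, SLC29A3 (a nucleoside transporter) 6.74 and KIFC3 (a kinesin) 4.23. NUCB2, NOL4L, FAM193A and COL26A1 had ratios of 3.20, 3.19, 2.36 and 2.36. The remaining 39 held 4 each. By density EFNA3 (chr1:155051313-155060014, plus strand), an ephrin ligand, came first, with 4 AML1-ETO summits in a window of 18702 bp, 20.8 times the expected count, followed by CDHR5 with 19.9 times and SP7, a factor of bone formation, with 13.5 times. After FXYD2 came ARF3, BRME1, SPC24, NOP14, CXXC5 and ALG1L2, with ratios from 12.2 to 9.39. In SP7 and NOP14 all 4 AML1-ETO summits lay within 1 kb of a start. NOP14 shows what the edge of a window does, since an N-CoR summit lay 2236 bp from one of its AML1-ETO summits but outside the window.

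The rule keeps N-CoR summits out of the windows of these genes, so the distances to N-CoR are a description. The median distance from their 208 AML1-ETO summits to the nearest N-CoR summit was 98153 bp, and 21 of them (10.1%) had one within 20 kb. The AML1-ETO summits of the 2786 genes with 1 AML1-ETO and 0 N-CoR summits had a median distance of 102244 bp. In many-both genes the AML1-ETO summits that did not overlap N-CoR had a median distance of 5592 bp. The spread of AML1-ETO summits along the gene was compared without a test. Among genes with exactly 4 AML1-ETO summits, the first and the last lay a median of 34722 bp apart in 139 many-both genes and 35729 bp apart in 39 genes without N-CoR, and median gene lengths were 73651 and 74512 bp. With 5 summits the medians were 43565 bp in 105 many-both genes and 55735 bp in 9 genes without N-CoR, and over all genes of the classes they were 74618 and 40927 bp.

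The printed windows of 2 such genes come from the forward strand of hg19, with the same letters in capitals. The EFNA3 window (chr1:155064056-155064155) lies downstream of the gene body, and the RGS3 window (chr9:116341349-116341448) is intronic with an ETS consensus. An AML1 summit lay 40 bp from the RGS3 summit, and the nearest to the EFNA3 summit was 5396 bp away.
EFNA3: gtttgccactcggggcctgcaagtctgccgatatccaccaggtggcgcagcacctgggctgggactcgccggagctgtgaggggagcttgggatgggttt
RGS3: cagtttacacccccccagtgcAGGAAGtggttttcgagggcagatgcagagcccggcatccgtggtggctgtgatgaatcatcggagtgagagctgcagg

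**Figure D4:**
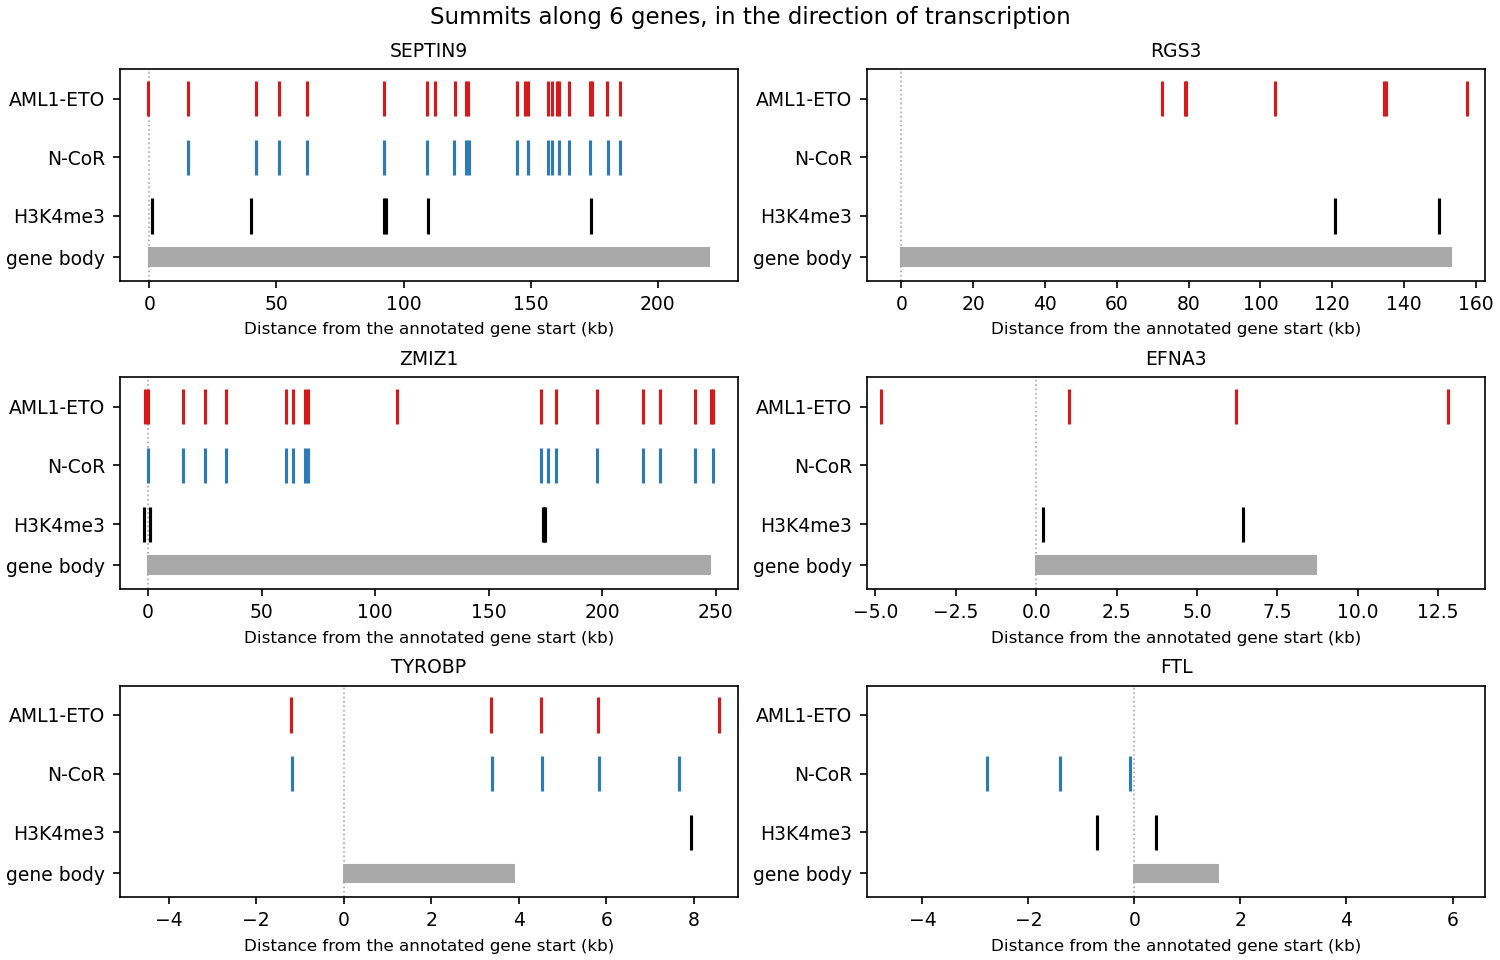
Positions of AML1-ETO, N-CoR and H3K4me3 summits along 6 genes, as distance from the annotated gene start in the direction of transcription (kb), with the gene body in grey and windows reaching 5 kb past it. In SEPTIN9, ZMIZ1 and TYROBP most N-CoR marks stand under an AML1-ETO mark, RGS3 and EFNA3 hold AML1-ETO marks only, and FTL holds 3 N-CoR marks within 5 kb upstream of its start.

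The N-CoR only genes were of ordinary length and mostly held a single summit. Of 761 genes, 687 had 1 N-CoR summit, 71 had 2 and 3 had 3. Since neighbours share summits, the 761 genes rest on 659 distinct N-CoR summits in 598 loci, while the 517 many-both genes formed 483 loci. FTL (chr19:49468566-49470136, plus strand), the light chain of ferritin, held 3 N-CoR summits in a window of 11571 bp, 46.4 times the expected count, and the nearest AML1-ETO summit was 28120 bp away. H1-5, a linker histone, also held 3, but an AML1-ETO summit lay 1193 bp from one of them, just outside the window. The genes next in rank, with 2 each, were the histone genes H4C7, H2BC17, H2AC14, H2AC20 and H3C4, and then ZNHIT2, MRPS16 (a mitochondrial ribosomal protein) and PNRC1 (a nuclear receptor co-activator). Among blood factors CEBPB was N-CoR only, with 1 summit.

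Replication-dependent histones stood out by number. Of the 65 core and H1 histone genes of the clusters 36 were N-CoR only, against 3.90% of all genes. These 36 rest on 25 distinct N-CoR summits. None of the 65 was many-both, a count that cannot be set apart from the 2.65% of all genes. Ribosomal protein genes gave 13 of 76, among them RPL3, RPL5, RPS7 and FAU, mitochondrial ribosomal protein genes 9 of 77, zinc finger genes with a ZNF number 20 of 508, and olfactory receptor genes 1 of 399. The histone, mitochondrial, zinc finger and olfactory families were counted after the values had been seen. Chromosome 6, which carries the large histone cluster, had the highest N-CoR only share, 7.53% of its 1009 genes (5.98 to 9.34%). The many-both share was highest on chromosome 10, 5.66% of 725 genes (4.09 to 7.59%), and was 0.700% of 857 genes on X (0.257 to 1.52%).

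The N-CoR summits of this class mostly lay at gene starts. Within 1 kb of a start were 68.3% of 659 summits (64.6 to 71.8%), against 22.3% of the N-CoR summits of many-both genes (20.6 to 24.1%), and 66.3% lay within 1 kb of an H3K4me3 summit (62.6 to 69.9%), against 18.1% (16.5 to 19.7%). Over all gene windows these shares were 37.9% and 33.3%, and in genes with 1 summit of each they were 54.3% and 48.4%. All 25 summits at histone genes lay within 1 kb of a start. AML1 windows overlapped 23.1% of the summits (19.9 to 26.5%) against 55.4% in many-both genes (53.3 to 57.4%), and p300 windows overlapped 39.2% (35.4 to 43.0%) against 42.4% (40.3 to 44.5%). Heights are not in the list, but its order differed between classes. The last 25% of the N-CoR list held 50.5% of these summits (46.6 to 54.4%) and 18.7% of those in many-both genes (17.2 to 20.4%). What this order follows is not given in the sources used here.

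Windows of N-CoR summits at FTL and at 3 histone genes are shown as examples of the class, the histone windows for their CCAAT boxes. All come from the forward strand of hg19. The FTL window (chr19:49467105-49467204) lies upstream of the gene. The windows at H2BC17 (chr6:27861061-27861160) and H2AC14 (chr6:27782609-27782708) lie 92 and 104 bp from the starts of these genes. The H3C4 window (chr6:26199580-26199679) lies 2116 bp upstream of H3C4, and 109 bp from a transcript start of another protein-coding gene. The histone windows hold the CCAAT box on one strand or the other at 2, 3 and 3 places, while the FTL window holds none of the letters searched. They also hold letters seen above, the Runx consensus in H3C4 and TGACG in H2BC17 and H2AC14.
FTL: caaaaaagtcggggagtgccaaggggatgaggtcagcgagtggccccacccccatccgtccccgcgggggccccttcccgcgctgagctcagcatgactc
H2BC17: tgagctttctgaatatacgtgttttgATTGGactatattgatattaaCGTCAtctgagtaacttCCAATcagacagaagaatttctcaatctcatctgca
H2AC14: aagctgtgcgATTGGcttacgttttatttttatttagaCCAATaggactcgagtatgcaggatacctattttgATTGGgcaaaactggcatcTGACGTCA
H3C4: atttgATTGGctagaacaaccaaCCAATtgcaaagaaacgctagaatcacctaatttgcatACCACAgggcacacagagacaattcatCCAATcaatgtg

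CCAAT and TGACG were searched after sequences had been seen. The former was present in 20 of the 25 N-CoR windows at N-CoR only histone genes, 80.0% (59.3 to 93.2%), and in 11.5% of the other 634 windows of the class (9.13 to 14.3%). The windows 1000 bp to either side of the latter held it in 11.1%, and N-CoR windows in all gene windows in 8.45%. TGACG was in 15.3% of the class's 659 windows (12.7 to 18.3%) against 4.48% to either side, in 5.95% of N-CoR windows of many-both genes (5.01 to 7.01%) and in 8.11% over all gene windows. It was also in 10.7% of N-CoR windows of genes with 1 summit of each (9.13 to 12.5%) and in 11.1% of AML1-ETO windows of genes with 1 AML1-ETO and 0 N-CoR summits (9.89 to 12.5%).

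The Runx consensus was counted in AML1-ETO windows of the classes with AML1-ETO and in N-CoR windows of N-CoR only genes. TGTGGT was present in 27.4% of AML1-ETO windows of many-both genes (25.9 to 29.0%), in 36.1% of those of AML1-ETO without N-CoR genes (29.5 to 43.0%) and in 5.16% of N-CoR windows of N-CoR only genes (3.60 to 7.14%). To either side it was present in 6.48%, 5.29% and 5.61%, so that in N-CoR only genes it was no more frequent than in the flanking sequence. This was not particular to the class, since N-CoR windows of many-both genes that did not overlap AML1-ETO held it in 6.11% (4.10 to 8.71%), against 6.55% to either side. Over all gene windows it was in 28.9% of AML1-ETO and 17.8% of N-CoR windows. Within many-both genes, 24.3% of AML1-ETO windows that overlapped N-CoR held it (22.3 to 26.3%) and 31.4% of those that did not (29.0 to 33.9%).

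The intervals of the ETS and PU.1 letters overlapped between the classes with AML1-ETO. AGGAAG was in 41.2% of AML1-ETO windows of many-both genes (39.5 to 42.9%) and in 36.5% of those of AML1-ETO without N-CoR genes (30.0 to 43.5%), and GAGGAA, the PU.1 consensus, in 28.1% (26.5 to 29.7%) and 26.4% (20.6 to 33.0%). Within many-both genes AGGAAG was in 48.2% of AML1-ETO windows that overlapped N-CoR (45.9 to 50.5%) and in 32.4% of those that did not (30.0 to 34.9%), and GAGGAA was in 32.3% (30.2 to 34.6%) and 22.7% (20.6 to 25.0%). In N-CoR only genes AGGAAG was in 30.7% of N-CoR windows (27.1 to 34.3%) and GAGGAA in 20.2% (17.2 to 23.5%), against 9.03% and 8.50% to either side. At the 25 histone summits AGGAAG was in 0 windows. A match of letters is a description of the sequence and does not show that a factor was bound.

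**Figure D5:**
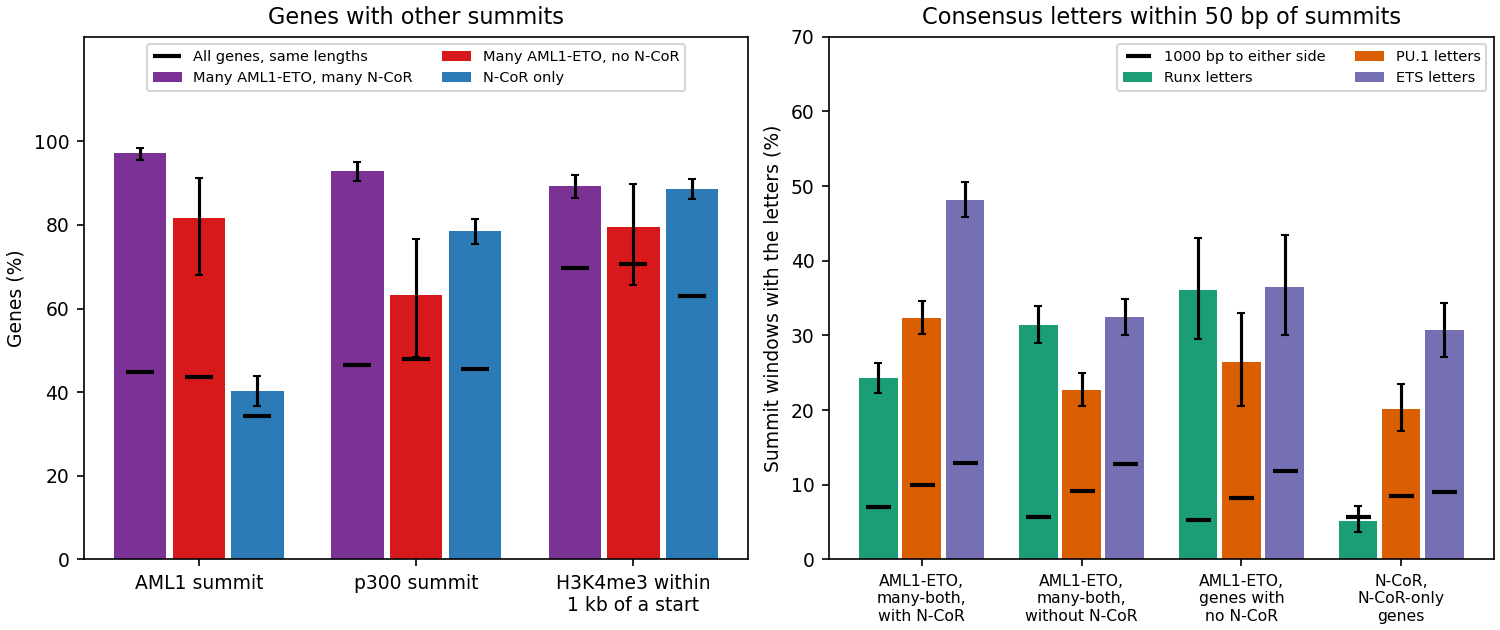
Left, share of genes (%) with an AML1 summit, a p300 summit or an H3K4me3 summit within 1 kb of a start, by class, with exact 95% intervals. Black lines give the share of all genes with the same lengths. Right, share of 100 bp summit windows (%) with the Runx, PU.1 and ETS letters, black lines giving the windows 1000 bp to either side. p300 is in 93.0%, 63.3% and 78.6% of the genes of the classes, and the Runx letters are at background in N-CoR only genes.

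The other factors were counted per gene in each class. An AML1 summit lay in the window of 97.3% of many-both genes (95.5 to 98.5%), 81.6% of AML1-ETO without N-CoR genes (68.0 to 91.2%) and 40.3% of N-CoR only genes (36.8 to 43.9%). All genes of the same lengths had shares of 44.8%, 43.5% and 34.2%. The acetyltransferase p300 was found in 93.0% (90.5 to 95.1%), 63.3% (48.3 to 76.6%) and 78.6% (75.5 to 81.4%), against 46.4%, 47.9% and 45.6% of all genes of these lengths. The excess over genes of the same lengths was not particular to the many-both genes. It was also seen in genes with at least 4 AML1-ETO and 1 or 2 N-CoR summits, 79.5% (74.9 to 83.6%) against 46.8%, and in genes with 1 summit of each, 72.9% (70.6 to 75.1%) against 46.6%. H3K4me3 marked a start in 89.4% (86.4 to 91.9%), 79.6% (65.7 to 89.8%) and 88.7% (86.2 to 90.9%), against 69.6%, 70.6% and 63.1% of all genes of these lengths, so that the AML1-ETO without N-CoR genes could not be set apart from genes of their lengths.

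The shares were also compared at one number of AML1-ETO summits. Among genes with exactly 4, p300 was present in 126 of 139 many-both genes, 90.6% (84.5 to 94.9%), and in 25 of 39 genes without N-CoR, 64.1% (47.2 to 78.8%). AML1 was present in 95.7% (90.8 to 98.4%) and 82.1% (66.5 to 92.5%), and an H3K4me3-marked start in 84.9% (77.8 to 90.4%) and 79.5% (63.5 to 90.7%). The intervals of p300 did not overlap, while those of AML1 and H3K4me3 did. An overlap does not show that shares are equal, and AML1 was present in 133 of 139 and 32 of 39 genes. Genes are not replicates of a class, so these intervals are a description. Among genes with exactly 5, p300 was present in 97 of 105 many-both genes, 92.4% (85.5 to 96.7%), and in 6 of 9 genes without N-CoR, 66.7% (29.9 to 92.5%), and these intervals overlapped.

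Single AML1-ETO summits showed where p300 and AML1 lay. In many-both genes p300 windows overlapped 45.5% of the AML1-ETO windows that also overlapped N-CoR (43.2 to 47.8%) and 7.81% of those that did not (6.47 to 9.32%). For AML1 these shares were 66.1% (63.8 to 68.3%) and 21.5% (19.4 to 23.8%). In AML1-ETO without N-CoR genes p300 overlapped 8.17% (4.83 to 12.8%) and AML1 27.9% (21.9 to 34.5%), values near those of the summits of many-both genes that lacked N-CoR. List order moved with these shares. The first 25% of the AML1-ETO list held 54.0% of the summits with N-CoR in many-both genes (51.7 to 56.4%), 9.97% of those without it (8.47 to 11.6%) and 9.13% of the summits of AML1-ETO without N-CoR genes (5.59 to 13.9%). The part of this order in the overlaps was not tested.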

How the data were processed

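The authors aligned single-end reads to hg19 (GRCh37) with Bowtie 0.12.8, combined the reads of both biological replicates per antibody, and ran MACS2 2.0.10.20131216 at p below 1e-20. The submitters' processing notes also name CASAVA 1.6. The deposited files give positions and peak names, as intervals of 100 bp in 5 lists. Peak names in the N-CoR, p300 and H3K4me3 lists carry another antibody's prefix, and lists were assigned by the sample they were deposited under. The lengths of these lists equal the peak numbers that the study reports for N-CoR, p300 and H3K4me3. The summit was taken as the middle of the interval, its start plus 50 bp. The files have no header and no score, count or signal to test. Files of H3K27me3 and input were not analysed here.

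Genes were the protein-coding genes of GENCODE release 44 lifted to GRCh37 on chromosomes 1 to 22, X and Y, without readthrough genes and without copies in the pseudoautosomal part of Y. Starts are those of all transcripts of these genes. Windows of 2 lists overlap when they share at least 1 bp. Named genes were the 10 with the most summits and the 10 with the highest density per class, where genes whose summits were all held by a gene already ranked were skipped, and the list members in a class. The rule printed, per class, the first gene by density with a summit window outside exons (H1-5 had none), and the further sequences were chosen after values were seen. The members and lists were chosen with earlier results of these data known, and myeloid genes were among those results. No test was made, since each antibody has 1 pooled list. Counting was checked on planted summits. Python 3.11.15, numpy 2.4.6, pandas 2.3.3, SciPy 1.17.1 and matplotlib 3.10.9 were used. The alternatives were other flanks, thresholds, assignments, gene sets, windows and list lengths. Some named genes, markers and sequences are not reported here.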

Additional observations from a re-analysis of the deposited data

How the results depend on the processing

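Class sizes depended on the thresholds. Without flanks there were 27 AML1-ETO without N-CoR genes and 507 N-CoR only genes, and p300 was in 88.7% of many-both genes and 44.4% of AML1-ETO without N-CoR genes. With many set at 3 AML1-ETO and 2 N-CoR summits there were 1088 many-both genes, 88.1% of them with p300, and 202 AML1-ETO without N-CoR genes. With 6 and 4 there were 217, 96.8% with p300, and 1 (RGS3), where the p300 share is 0%. Merging summits within 1 kb left 25 AML1-ETO without N-CoR genes. With the AML1-ETO list shortened to its first 10004 summits the classes held 285 genes (96.8% with p300), 8 and 1608. With at least 4 times the expected count and at least 2 summits in place of fixed counts they held 793, 388 and 56, a minimum that alone leaves out the 687 N-CoR only genes with 1 summit. Of the 517 many-both genes 301 (58.2%) met this rule, and of the 49 AML1-ETO without N-CoR genes 28 (57.1%). With the same ratio and at least 1 summit, tried after seeing the data, they held 1765 (84.4% with p300), 1212 and 457. Within 100 bp of the summit TGTGGT was in 36.5% of AML1-ETO windows of many-both genes, 44.7% of those of AML1-ETO without N-CoR genes and 8.19% of N-CoR only windows. N-CoR summits lay within 50 bp of 47.9% and within 500 bp of 60.1% of AML1-ETO summits in many-both genes. A 10 kb flank, each summit counted once, readthrough genes kept, and no chromosomes 8 and 21 left every class within 1.5 times its size. Without each chromosome in turn the classes held 469 to 517, 43 to 49 and 669 to 761 genes. In each alternative that gave both shares, p300 was in more of the many-both genes than of the AML1-ETO without N-CoR genes. No paired analysis was possible because replicates were pooled and no result comes from a test.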
